A study of Mus musculus with 34 samples.

Results

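Steady mRNA was set against newly made RNA, gene by gene, in wild-type mouse liver. The measure was the amount of mRNA found per amount of nascent RNA found, each as a share of its library, for every gene with a value of at least 20 in all 3 of mRNA, EU RNA and Br run-on RNA. Of 37583 genes with a row, 10540 met that rule (28.0%), and 10331 of these had a gene symbol. They held 97.6% of the mRNA total, 96.8% of the EU reads and 82.9% of the Br reads.

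A set of 5 libraries entered, all from livers of wild-type F1 mice of a C57Bl6/CBA cross at 45 days of age. The 3 mRNA libraries, numbered 1 to 3, hold polyadenylated RNA. The EU library holds nuclear RNA from mice given 25 mg per kg of 5-ethynyl uridine 30 min before death, so that RNA made in the living animal in that time could be captured through the label. The Br library holds RNA from isolated liver nuclei in which engaged RNA polymerases were let run on with bromo-UTP for 3 min. The EU and Br libraries were fragmented and ligated by different steps. Both kinds of nascent RNA have 1 wild-type library each, so no difference reported here has a test. The labels do not say whether libraries came from the same animals, nor how many livers went into each. A set of 3 mRNA, 1 EU and 1 Br library from mice of genotype Setd8lox/lox-Alb-Cre, of the same cross and age, served only as a repeat in other libraries. In these mice Cre is driven by the albumin promoter, which is active in hepatocytes, and acts on floxed Setd8 (Kmt5a), a histone H4 lysine methyltransferase gene.

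The steady level of an mRNA is set by how fast it is made and how fast it is lost, and also by how much of the new transcript is processed and exported. An mRNA that lasts long builds up far beyond its rate of synthesis, while a short-lived transcript, or one that stays in the nucleus, stays close to it. In liver, mRNAs of secreted plasma proteins, of the ribosome and of the respiratory chain are known as long-lived, and those of many transcription regulators, signalling genes and early response genes as short-lived.

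The ratio used throughout is the log2 of the mRNA share over the nascent share, minus the same value for the median gene. It is called the EU ratio or the Br ratio after the nascent library. A ratio of 0 is the median gene, and 2 is 4-fold more mRNA per nascent RNA than the median gene. Without centring, the median gene lay at -0.54 for EU and -0.82 for Br. Both ratios use the same mRNA libraries, so their likeness is partly built in, and their values are only given side by side. The error of a gene's ratio is given as the SD over the 3 mRNA libraries (n = 3) and as the exact 95% Poisson interval of the nascent reads, which covers counting error only. The median SD was 0.30 for both ratios, and the median gene had 319.5 EU reads and 117 Br reads.

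The mRNA totals of the 3 libraries were 20066093, 20480357 and 25820906 scaled values, against 10833287 EU reads and 3156055 Br reads. Library 3 of the mRNA stood apart, with 20077 genes above 0, where libraries 1 and 2 had 25163 and 26247. All 10 hepatocyte markers were measured, with a summed share of 9.69% to 12.0% of the mRNA, 4.71% of EU and 1.84% of Br. Other cell types took smaller shares of the mRNA, with 0.0240% to 0.0403% for 10 Kupffer cell and macrophage markers and 0.0289% to 0.0405% for 9 endothelial markers. Erythroid markers took 0.0581% to 0.0956%, and an adipocyte list that holds Pck1, which hepatocytes also express, 0.163% to 0.358%. Pancreatic acinar markers took 0.0213% of the Br library, against 0.00304% to 0.00476% of the mRNA and 0.000554% of EU, with 8 of 10 at 0 in at least 1 wild-type mRNA library. Their part in the Br ratios was not tested. Lymphocyte, neutrophil and skeletal muscle markers came to at most 0.00189% of each mRNA library, and 6 of 10 neutrophil and 8 of 10 muscle markers were at 0 in at least 1 wild-type library. In whole liver, fewer cells of a type and less RNA per cell cannot be told apart.

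The ratios spread widely. The middle 90% of genes ran from -2.64 to 3.24 for EU and from -2.60 to 2.61 for Br. For EU, 1512 genes lay at least 4-fold above the median gene (14.3%) and 1185 at least 4-fold below (11.2%). For Br, these counts were 1053 (9.99%) and 965 (9.16%). In both ratios at once, 605 genes lay at least 4-fold above (5.74%) and 275 at least 4-fold below (2.61%), and these are called high and low genes from here on. The highest and lowest members of a class are those by the mean of both ratios. With each of the 3 mRNA libraries on its own, 421 genes stayed high (3.99%) and 157 stayed low (1.49%). Without library 3, 632 genes were high, among them 553 of the 605, and 292 were low, among them 224 of the 258 still measured. Of the high genes 561 were protein coding, 33 were annotated as another type and 50 had ribosomal protein symbols. Of the low genes 182 were protein coding, 64 were annotated as another type and 0 had ribosomal protein symbols. The other types include pseudogenes. The plot of both ratios shows the classes described next.

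**Figure D1:**
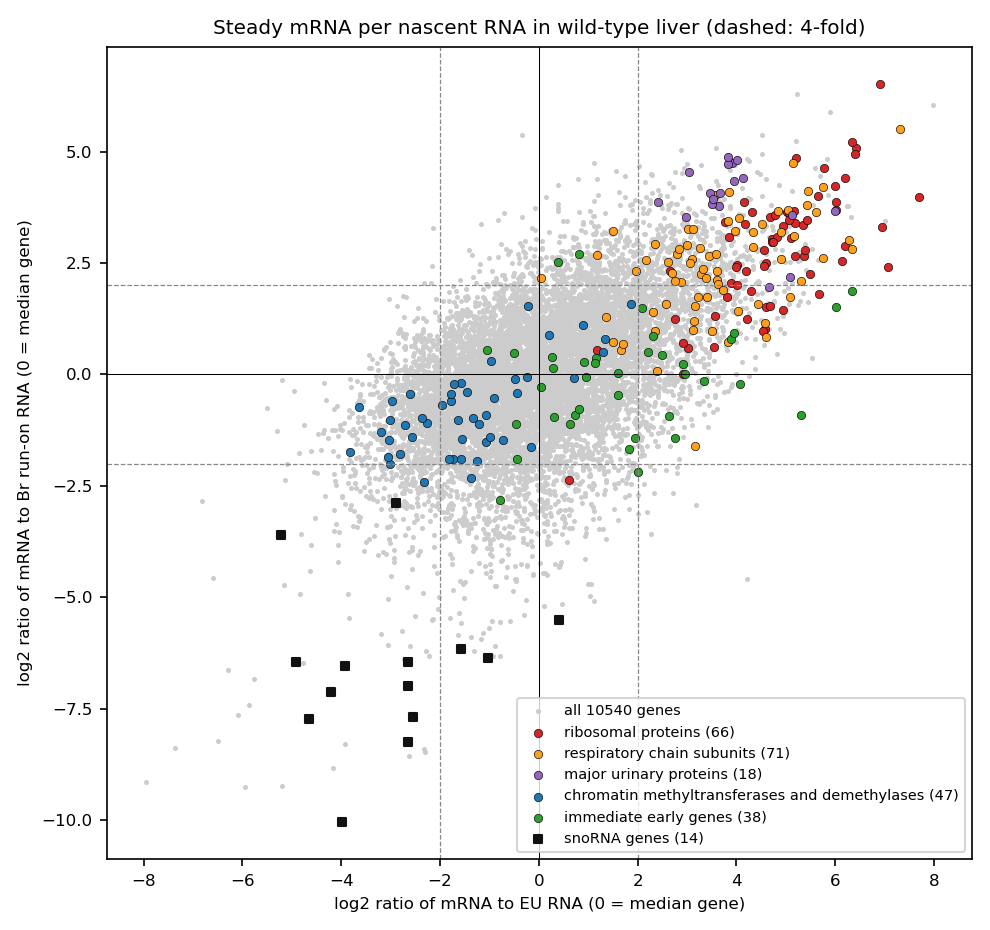
Each point is 1 of 10540 genes, with the EU ratio on the x axis and the Br ratio on the y axis, both log2 with 0 at the median gene and dashed lines at 4-fold. Ribosomal proteins (49 of 66), respiratory chain subunits (45 of 71) and major urinary proteins (17 of 18) fill the upper right corner, chromatin methyltransferases and demethylases lie mostly at lower left, and 13 of 14 snoRNA genes lie below 0 in both.

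Ribosomal proteins, the protein part of the ribosome, had the most mRNA per EU RNA of the 41 classes with at least 5 measured members. Of 80 listed genes 66 were measured, 65 of them lay above the median gene in both ratios, where 33.9% of all genes do, and 49 were high against 5.74% of all genes. Their median EU ratio was 4.76 (27-fold) and their median Br ratio 2.93 (7.6-fold). With 1 mRNA library at a time, the EU median was 4.41, 4.81 and 5.07 and the Br median 2.61, 2.86 and 3.07 (SD 0.34 and 0.23). Together the 66 took 1.40% of the mRNA, 0.0634% of the EU reads and 0.317% of the Br reads. Processed copies of these genes share their sequence, so reads of single members may be split or misplaced.

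Rpl19, a protein of the large subunit, had mRNA values of 14627, 15491 and 9070, against 78 EU reads and 36 Br reads. Its EU ratio was 6.90 (SD 0.48, counting interval 6.58 to 7.24) and its Br ratio 6.52 (6.05 to 7.03), the highest mean of both ratios among the genes that stayed high with each library, predicted genes left out. Rps2, of the small subunit, had mRNA values of 10212, 13182 and 37380, with 70 EU and 326 Br reads. Its mRNA in library 3 was above both others, and its ratios were 7.69 (SD 0.93) and 3.97. Rplp1, an acidic stalk protein, was steadier over libraries at 32753, 29293 and 35500, with 287 EU and 221 Br reads and ratios of 6.34 (SD 0.09) and 5.21. Rpl7, Rps3a1 and Rpl10 were also among the 10 highest of these, with EU ratios of 6.42, 6.41 and 6.19 and Br ratios of 5.09, 4.96 and 4.40. At the other end of the class stood Rpl21, at 1.18 and 0.56, and Rps15a, at 0.61 and -2.37, the only measured ribosomal protein gene not above the median gene in both ratios. Rps15a had mRNA values of 181, 225 and 199 with 94 EU and 263 Br reads. Rps16 fell outside the rule with only 10 EU reads, beside 127 Br reads and mRNA values of 3819, 4619 and 11611, and so did Rpl14, with 15 EU reads and 38 Br reads.

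Ribosomal protein mRNAs are known to begin with a C followed by a run of pyrimidines, through which growth signals control their translation, and their start sites are therefore shown. Starts were taken from RefSeq on GRCm38.p6, and a run was counted where a C was followed by at least 7 more C or T, read on the gene's strand, within 5 bases before to 15 bases from the annotated start. Such a run stood at 18 of 60 starts of 49 measured ribosomal protein genes found in the table (30.0%), against 1680 of 32851 starts in the whole table (5.11%) and 5.20% of those of all genes measured here. Each line gives 20 bases before and 20 from the start, 5′ to 3′, with the part of the run inside the window in capitals. In Rpl7a the stretch of C and T also goes on before the window. The first 4 are high genes with a run and the last is Rpl19, in which no such run stands in the window.
Rpl7a, chr2:26910787-26910826, plus strand: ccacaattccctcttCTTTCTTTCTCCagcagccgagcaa
Fau, chr19:6057927-6057966, plus strand: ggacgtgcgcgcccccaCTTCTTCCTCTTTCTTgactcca
Rps6, chr4:86857348-86857387, minus strand: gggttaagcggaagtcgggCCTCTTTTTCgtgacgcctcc
Rplp2, chr7:141447631-141447670, plus strand: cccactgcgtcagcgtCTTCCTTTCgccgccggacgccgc
Rpl19, chr11:98026690-98026729, plus strand: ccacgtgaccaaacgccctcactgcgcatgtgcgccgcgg
The share was 11.1% over 36 starts of translation factors, 7.94% over 63 starts of respiratory chain genes, 10.6% over 47 starts of chromatin methyltransferases and demethylases, a class at the low end, and 5.43% over 479 starts of high genes other than ribosomal proteins. The run was thus not shared by the high genes at large. A match is a description of the letters, and annotated starts can be some bases off.

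Translation factors, which work with the ribosome, had medians of 1.21 for EU and 1.78 for Br, with 31 of 38 members above the median gene in both and 8 high. Eef1a1, which brings aminoacyl tRNAs to the ribosome, had mRNA values of 31641, 44941 and 94028, with 2137 EU and 520 Br reads and ratios of 4.25 (SD 0.75) and 4.79. Tpt1, a small translation-linked protein, stood at 5.41 and 3.42. The lowest were Eif4g2 at -0.78 and 1.01 and Eif4g3 at -0.02 and 0.12, both large scaffold proteins of initiation. Aminoacyl tRNA synthetases, which charge tRNAs, were close to the median gene, at 0.27 and 0.67, with none of 20 high.

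Respiratory chain subunits encoded in the nucleus had medians of 3.45 for EU (SD 0.15 over libraries) and 2.52 for Br (SD 0.06). Of 71 measured members, 70 lay above the median gene in both ratios and 45 were high. Cox6a1, a subunit of cytochrome c oxidase, had mRNA values of 17517, 13095 and 22541 with 80 EU and 99 Br reads, and ratios of 7.30 (SD 0.34) and 5.50. Ndufb11, of complex I, reached 5.76 and 4.20, and Atp5b, of ATP synthase, had the most mRNA of the class at 26812, 29143 and 28694 and ratios of 3.13 (SD 0.08) and 3.27. Ndufs7 was the exception, at 3.16 for EU and -1.61 for Br, with 135 EU reads and 1300 Br reads. Among other energy genes, 19 of 36 of fatty acid oxidation and ketogenesis were high (medians 2.37 and 2.15), led by Fabp1, a fatty acid carrier, at 5.12 and 4.12. In the repeat, the EU ratio of Fabp1 was 1.11. Glycolysis (6 of 17 high, medians 2.08 and 1.87) was led by Gapdh at 5.55 and 3.80, and the TCA cycle (4 of 20, 1.31 and 1.89) by Suclg1 at 3.33 and 3.02.

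Proteins that the liver secretes formed the next block, in which mRNA per nascent RNA was high in nearly each class but by a different amount in each method. Apolipoproteins, which carry lipids in plasma, had medians of 3.64 and 3.02, with 11 of 14 high. Apoa1, the main protein of HDL, had mRNA values of 573796, 490537 and 510569, 7230 EU reads and 6096 Br reads. Its ratios were 5.70 (SD 0.14) and 4.44. Apoa2 stood at 6.24 and 3.78, though its mRNA of 265011 in library 3 was about 3 times that of 81754 and 81939 in the others. Apob, the very large core protein of VLDL, was the lowest of the class, at -1.26 (SD 0.84) and 1.29, with 137872 EU reads and 8339 Br reads. It was the only one of the 14 apolipoprotein genes with a negative ratio.

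Albumin itself differed between methods. Alb had mRNA values of 1070960, 1072564 and 2021012, of which library 3 was the highest, with 244515 EU reads and 13700 Br reads. Its EU ratio was 2.02 (SD 0.47) and its Br ratio 4.68, so that Alb passed 4-fold for EU only just, and not with each library. The class of plasma carriers and hormones had medians of 2.49 and 2.91, with 22 of 33 high. Fetub, a fetuin, reached 4.51 and 5.36, and Hamp, the iron hormone hepcidin, 6.21 and 2.91, on 88 EU reads and 307 Br reads. Angptl4, a fasting-induced inhibitor of lipoprotein lipase, and Igfbp1, an insulin-repressed binding protein, were lowest by the mean of both ratios, at 1.22 and -1.42 and at 2.35 and -0.62. By EU alone the lowest was Igf1, a growth factor, at -1.17.

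Serpins and other protease inhibitors had a lower EU than Br median, 1.81 and 2.96, with 10 of 25 high. Serpina1e, an alpha-1-antitrypsin gene, had mRNA values of 203360, 365126 and 593933 with 7339 EU and 1243 Br reads, and ratios of 5.24 (SD 0.73) and 6.30. Coagulation and complement genes (8 of 35 high) were at 1.25 and 2.11, led by Mbl2 at 3.28 and 4.69. Acute phase proteins (5 of 12 high) were at 1.07 and 2.99, led by Apcs at 4.53 and 4.94 and Hpx, the haem binder hemopexin, at 2.99 and 4.72. Only 6 of the 12 lay above the median gene in both ratios. Saa1, Saa2, Saa4, Crp and Fgl1 had negative EU ratios, lowest for Saa2 at -2.70 and 1.73, and Lbp stood at 0.57 and -1.04. The high genes Hp, Hpx, Orm1 and Orm2 are also counted among plasma carriers and hormones. C1s1, a complement protease gene, rests on 1 library, with mRNA values of 12, 1816 and 11, so that its ratios of -1.92 and -0.65 have an SD of 4.26.

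Major urinary proteins, the pheromone carriers that male mouse liver secretes in bulk, had the highest Br median of the 41 classes, 4.00, beside an EU median of 3.83. All 18 measured genes lay above the median gene in both ratios, and 17 were high. They took 5.63% of the mRNA, 0.676% of the EU reads and 0.535% of the Br reads. Mup9 had mRNA values of 89729, 146830 and 220813 with 7185 EU and 1439 Br reads, at 3.92 (SD 0.61) and 4.74. The genes of this cluster, like those of the Serpina1, Cyp2c and Gst families, are near copies, and how shared reads were assigned is not given, so values of single members are uncertain while sums over the family are less so.

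Glutathione transferases, which detoxify electrophiles, had medians of 3.73 and 2.58, with 9 of 15 high. Gstp2 stood at 7.00 and 3.45, on 99 EU and 411 Br reads, and Mgst1, with the most mRNA of the class (64965, 61609 and 96868), at 2.76 and 4.54. Cytochrome P450 genes were nearer the median gene for EU, at 1.17, than for Br, at 2.05, with 10 of 57 high. Cyp2e1 had mRNA values of 87901, 110590 and 189699 and ratios of 1.61 (SD 0.52) and 3.22, and Cyp2r1, which hydroxylates vitamin D, was lowest at -1.76 and -1.52. Proteasome subunits were high in 11 of 38 (medians 1.86 and 1.36), led by Psme1, of the interferon-linked activator, at 5.41 and 2.34. The large activator Psme4 was at -1.66 and 0.17.

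**Figure D2:**
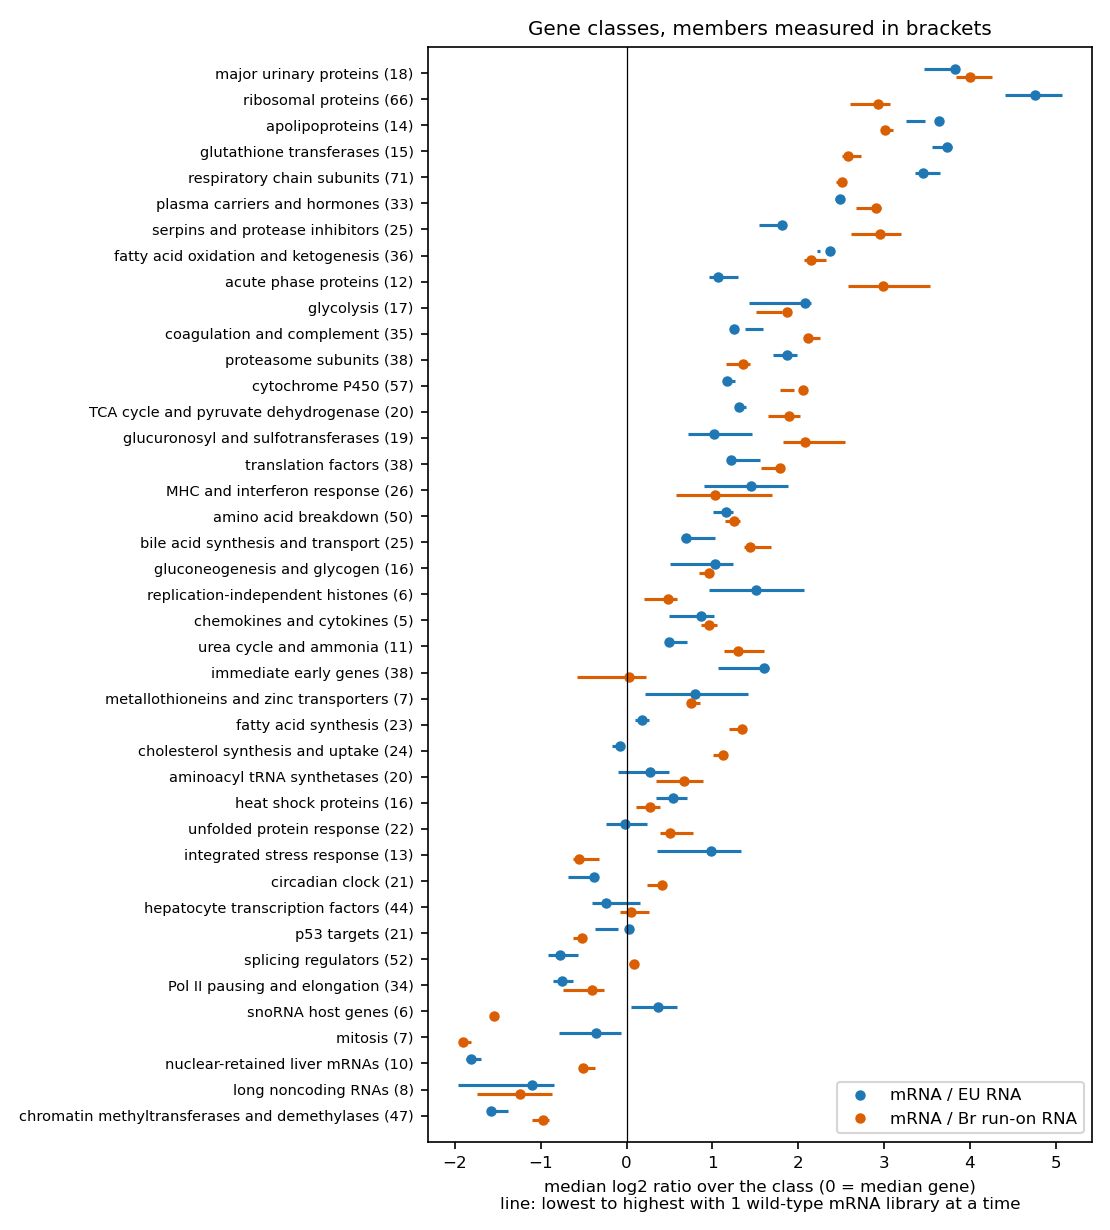
Median log2 ratio of 41 gene classes with at least 5 measured members, in blue for EU and orange for Br, with lines from the lowest to the highest median when 1 wild-type mRNA library was used at a time. Major urinary proteins (3.83 and 4.00) and ribosomal proteins (4.76 and 2.93) head the plot, and chromatin methyltransferases and demethylases (-1.58 and -0.98) close it.

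At the low end, chromatin methyltransferases and demethylases, the enzymes that write and erase histone methyl marks, had medians of -1.58 for EU (SD 0.13) and -0.98 for Br (SD 0.10). Of 47 listed genes all 47 were measured, and 39 lay below the median gene in both ratios, where 33.9% of all genes do. As few as 2 were low, where 2.61% of all genes were, so that most of the class lay below the median gene by less than 4-fold. At a 2-fold threshold, 20 of 47 lay below in both, against 11.7% of all genes. Kmt2c, a histone H3 lysine 4 methyltransferase, had mRNA values of 482, 589 and 586, with 5541 EU reads and 468 Br reads and ratios of -3.81 (SD 0.16) and -1.75. Kmt2e stood at -3.0 (SD 0.04) and -2.02. In the other direction, Smyd2 stood at 1.88 and 1.58, and Ehmt2, with the most mRNA of the class, at 0.89 and 1.12.

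Genes of RNA polymerase II pausing and elongation lay lower too, at -0.76 and -0.40, with 21 of 34 below in both. Cdc73, of the PAF complex, had mRNA values of 188, 234 and 360 with 1774 EU and 209 Br reads, at -3.25 (SD 0.42) and -1.67. Cdk12, an elongation kinase, stood at -2.87 and -1.72. Myc, counted in this list, had mRNA values of 203, 2665 and 1167, so its EU ratio of 3.95 has an SD of 1.90. Splicing regulators were low for EU at -0.78 but at the median gene for Br, 0.08, with Clk1, a kinase of splicing factors, at -1.87 and -1.52 and Srsf10 at -1.84 and -1.83. Zinc finger genes with Zfp symbols, a group added after their values had been seen, had medians of -0.99 and -1.08 over 234 genes, with 163 below in both and 17 low. Zfp871 was the lowest of them, with mRNA values of 223, 316 and 467 against 5360 EU and 392 Br reads, at -4.49 and -2.21.

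A list of 10 liver mRNAs reported in the field as held in the nucleus had medians of -1.82 for EU and -0.50 for Br. It was not of one kind, with 7 genes below and 3 above the median gene in both. Chka, a choline kinase gene, had mRNA values of 298, 264 and 181 with 1463 EU and 671 Br reads, and ratios of -3.05 (SD 0.43) and -3.42. Nlrp12 stood at -3.55 (SD 0.46) and -3.96, on mRNA values of 51, 42 and 84. Gcgr, the glucagon receptor, was at 2.24 (SD 0.06) and 0.90, and Nlrp6 at 1.34 and 1.25.

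Genes annotated as other than protein coding were 64 of the 275 low genes, and 14 of these were pseudogenes. Among the 605 high genes they were 33, of which 32 were pseudogenes. Of all 10540 genes measured, 9881 were protein coding and 209 were not in the annotation. Neat1, the scaffold of nuclear paraspeckles, had mRNA values of 10476, 8895 and 5348 against 34992 EU and 16254 Br reads, and ratios of -2.57 (SD 0.56) and -2.97. Malat1, of nuclear speckles, stood at -1.63 (SD 0.73) and -1.12, and Tug1 at -2.35 and -1.93. The 26 measured genes annotated as lincRNA had medians of -1.05 and -1.80, with 5 low, and the 72 antisense genes -1.0 and -2.30, with 13 low. The use of strand in counting is not given in the sources used here, so reads of an antisense gene and of its partner cannot be told apart. Firre, an X-linked noncoding RNA, was above the median gene at 0.96 and 0.63.

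Most of the lowest ratios among genes with a symbol belonged to small RNAs that carry no poly(A) tail. Rn7s6, a 7SL RNA of the signal recognition particle, had mRNA values of 30, 33 and 8 against 2785 EU and 1989 Br reads, at -7.37 and -8.38. Rnu2-10, a U2 RNA of the spliceosome, stood at -5.95 and -9.24. Of 14 measured snoRNA genes, which guide chemical modification of ribosomal RNA, 13 lay below in both and 11 were low, with medians of -2.77 for EU and -6.50 for Br. Snord104 had mRNA values of 21, 33 and 25, 299 EU reads and 6993 Br reads, and ratios of -3.99 (SD 0.35) and -10.04. Snord55 had 274, 44 and 49 with 2185 EU and 6524 Br reads, at -4.65 (SD 1.50) and -7.72. Rn7sk, the RNA that holds the elongation factor P-TEFb, had 6, 3 and 110, with 1036 EU and 6005 Br reads, and stood at -5.19 (SD 2.70) and -9.23. Its mRNA value came almost wholly from library 3. These genes rest on few mRNA reads, and most snoRNA genes lie within introns of hosts, whose reads may be counted with them. There were 6 snoRNA host genes measured, with medians of 0.36 for EU and -1.54 for Br. Gas5, one of these hosts, stood at 0.38 and -3.09 on 144 EU and 564 Br reads.

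miRNA genes, counted over the hairpin and so as parts of their long precursors, were split. Of 38 such genes with at least 20 EU and 20 Br reads, 12 also had at least 20 in mRNA and 26 did not. The mature miRNAs of some are shown in RefSeq form, 5′ to 3′, with the seed in capitals, because Mirlet7b and Mirlet7f-2 passed the rule while Mir192 and Mir195a, with more EU reads, did not. Mir195a and Mir15a share a seed, as do Mirlet7b and Mirlet7f-2.
miR-192-5p: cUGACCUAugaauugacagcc
miR-195a-5p: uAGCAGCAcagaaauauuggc
miR-15a-5p: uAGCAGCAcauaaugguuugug
miR-183-5p: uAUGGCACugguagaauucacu
let-7b-5p: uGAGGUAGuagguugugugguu
let-7f-5p: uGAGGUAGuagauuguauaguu
Mir195a had 927 EU and 183 Br reads but mRNA values of 0 in each of the 3 libraries, and Mir183 had 481 and 93, also with 0 in each. Mir192 had 969 EU and 264 Br reads with mRNA values of 0, 3 and 17. Mirlet7b, in contrast, had mRNA values of 324, 278 and 26 with 463 EU and 94 Br reads, and Mirlet7f-2 had 115, 77 and 10 with 856 and 195. In both let-7 genes library 3 was far below libraries 1 and 2, as in Mir122, the liver miRNA gene, with 8520, 7207 and 701.

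In wild type, metabolic enzymes under hormonal or sterol control were nearer the median gene, and the methods often parted over them. Urea cycle and ammonia genes had medians of 0.49 for EU and 1.30 for Br. Cps1, the entry enzyme of the urea cycle, had mRNA values of 43909, 53289 and 40398, with 101047 EU reads and 6289 Br reads, at -1.63 (SD 0.26) and 0.88. Cholesterol synthesis and uptake was at -0.07 and 1.12. Insig1, the sterol sensor partner, was at -2.22 and -0.73, and Fdps, farther down the pathway, at 2.30 and 3.05. Fatty acid synthesis was at 0.17 and 1.35, with Scd1 at 1.19 and 4.03 and Gpam at -2.91 and 0.28.

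Genes of amino acid breakdown had medians of 1.16 and 1.25, and 9 of 50 were high. Pccb, of propionate use, stood at 3.67 and 3.86, while Tat, the hormone-induced tyrosine aminotransferase, was at -1.32 (SD 0.23) and -1.11, with mRNA values of 18648, 22630 and 17894 against 35044 EU and 10764 Br reads. Kynu stood at -2.01 and -1.14. Pck1, the rate-limiting enzyme of gluconeogenesis, was at the median gene, 0.09 (SD 0.61) and -0.24, with mRNA values of 31824, 72619 and 48535. Bile acid genes were at 0.69 and 1.44. Nr0b2, the repressor SHP of that pathway, had mRNA values of 625, 252 and 453 with 128 EU reads and 1240 Br reads, and stood at 1.31 and -3.47.

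Regulators gave a mixed picture. Hepatocyte transcription factors lay at the median gene, -0.24 and 0.05, with 1 of 44 high and 1 low. Tcf7l2 was the low one, with mRNA values of 246, 313 and 318 against 1398 EU and 340 Br reads, at -2.74 (SD 0.19) and -2.20. Atf5 was the high one, at 5.41 (SD 0.63) and 2.80. Circadian clock genes were at -0.38 and 0.41, with Clock at -2.94 and -1.57, Rora at -3.85 and -0.80 and Dbp at 2.08 and 0.35. Immediate early genes, which respond to stimuli within minutes, had an EU median of 1.60 but a Br median of 0.02, with none of 38 high. Jun had mRNA values of 3306, 4751 and 4812, only 38 EU reads and 296 Br reads, and ratios of 6.33 (SD 0.29) and 1.87. Fosl2 was lowest, at -0.79 and -2.82. For its members measured again in the libraries labelled knockout, the medians were 0.02 and -0.60.

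Stress and defence genes were spread on both sides of the median gene. Of 26 measured genes of antigen presentation and the interferon response 7 were high (medians 1.46 and 1.03), led by B2m, the light chain of MHC class I, with mRNA values of 12110, 7119 and 30583 and ratios of 3.72 (SD 1.00) and 3.57. Mx2, an interferon-induced antiviral protein, was lowest at -0.92 and -1.97. For members measured again in the libraries labelled knockout the medians were 0.52 and 0.13. Genes of the unfolded protein response were at -0.02 and 0.51, with Pdia6, a folding enzyme of the endoplasmic reticulum, at 2.35 and 2.04 and Ern1, the stress sensor IRE1, at -1.97 and -0.36. Heat shock proteins were at 0.54 and 0.27, with Hspe1, a mitochondrial chaperonin, at 4.11 and 1.50 and Hspa1b, an inducible HSP70, at -0.33 and -3.66. Targets of p53 were at 0.03 and -0.52, and Rrm2b, a ribonucleotide reductase subunit, was lowest of them at -1.47 and -2.38. Of 32 listed mitosis genes 7 met the rule, and of 43 replication-dependent histone genes, whose mRNAs carry no poly(A) tail, 4 did.

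Over all genes, 15 lay at least 4-fold above for EU and at least 4-fold below for Br (0.142%), and 4 the other way (0.038%). Mfsd3 was one of the 15, with 24 EU and 588 Br reads, at 3.19 and -2.93, and B3galt1 one of the 4, with 3121 EU and 46 Br reads, at -2.16 and 2.42. The next 3 genes differed widely between the ratios without passing 4-fold in both directions. Id3, an inhibitor of helix-loop-helix factors, had mRNA values of 1014, 874 and 1786, with 22 EU reads and 582 Br reads, at 5.31 (counting interval 4.71 to 5.99) and -0.91. The EU ratio was the lower one for Elovl6, a fatty acid elongase, with 11878 EU reads and 160 Br reads, at -3.03 (SD 0.78) and 1.69, and for Snrpd1, a spliceosome core protein, at -5.19 and -0.13. In the repeat, Elovl6 stood at -3.07 and 1.12, while Snrpd1 stood at 0.56 and -1.04.

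**Figure D3:**
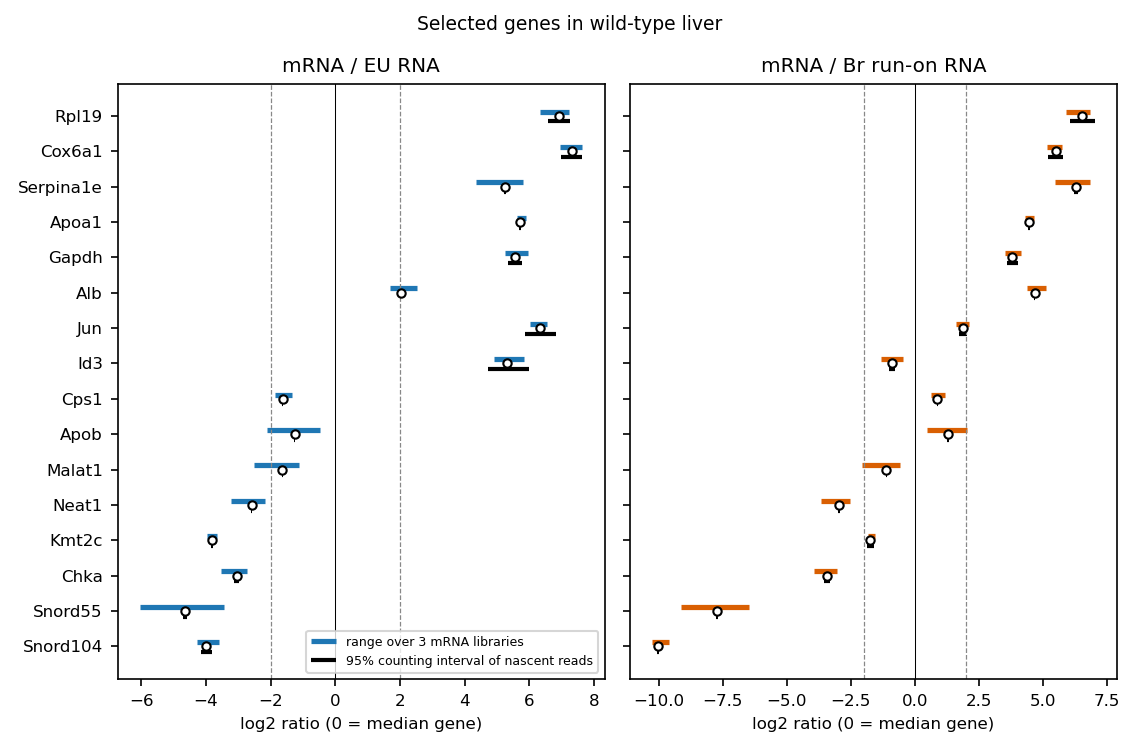
Log2 ratios of 16 genes for EU at left and Br at right, with open circles for the ratio on the mean of 3 mRNA libraries, coloured bars for the range over these libraries, black bars for the 95% counting interval of the nascent reads and dashed lines at 4-fold. Rpl19 and Cox6a1 are far right in both panels and Snord55 and Snord104 far left, while Alb, Apob, Cps1, Jun and Id3 differ between panels.

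Genes of other liver cells parted between methods as well. The 9 endothelial markers had a median EU ratio of 2.80 and a median Br ratio of -0.37, with 3 above the median gene in both. Clec4g, a sinusoidal endothelial lectin, had mRNA values of 2104, 1793 and 1449 with 38 EU and 151 Br reads, at 5.06 and 1.57, and Kdr, the VEGF receptor, stood at 3.54 and 0.61. The summed share of these markers was 0.00913% in EU and 0.0657% in Br, the one below and the other above the share in mRNA. Among 6 measured Kupffer cell and macrophage markers the medians were 1.35 and 0.11, and C1qa had 1 EU read against 36 Br reads. Haemoglobin and Alas2, markers of red cell precursors, had high ratios by both methods. Hba-a2 had mRNA values of 7738, 11930 and 8716 with 184 EU and 63 Br reads, at 5.20 and 5.24. In the EU library labelled knockout, erythroid markers came to 0.165%, against 0.00664% in the wild-type one. The high EU ratio of these markers did not repeat there. Over the 2 measured again, the medians were -0.36 for EU and 4.57 for Br, against 3.88 and 3.74 over 3 in wild type.

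The ratio varied with the length of the gene model, which was taken from GENCODE M21 for 9881 protein-coding genes. The genes were put into 5 bins of equal size by the length of their longest transcript. In the bin of the shortest (median 1414 bases), the median EU ratio was 1.75 and the Br ratio 0.82, with 20.2% of genes high and 0.708% low. In the bin of the longest (median 6893 bases), these were -1.43 and -0.58, with 0.202% high and 4.66% low. Both ratios stepped down from each bin to the next. By genomic span, the EU ratio went from 1.47 to -1.12, and the Br ratio from 0.47 to -0.36. Spearman's rho across genes, which are not independent replicates and share these libraries, was -0.61 for EU and -0.33 for Br with transcript length, and -0.50 and -0.17 with span.

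Transcript length and span go together, so the ratio was also read within 3 bins of the other. Among genes in the bin of 3 with the shortest span, EU medians were 2.24 for the shortest and 0.18 for the longest bin of transcripts, and among those with the longest span -0.13 and -1.69. The Br medians were 0.95 and -0.21 for the shortest span, and 0.29 and -0.71 for the longest. In the other direction, among genes in the bin of the shortest transcripts, EU medians were 2.06 for the shortest and 0.72 for the longest span, while Br medians were 0.77 and 0.67. In the middle bin of transcripts they were 0.43 and -0.36 for EU and -0.08 and 0.13 for Br, so that the Br ratio did not go down with span there. In the bin of the longest transcripts both ratios went down with span, from -0.65 to -1.45 for EU and from -0.34 to -0.60 for Br. Classes at both ends followed this length order in part. The median longest transcript was 959 bases for ribosomal proteins and 918 for respiratory chain subunits, against 6359 for chromatin methyltransferases and demethylases and 3177 for all genes. Ribosomal proteins lay above the bin of 5 with the shortest transcripts, at 4.76 against 1.75 for EU and 2.93 against 0.82 for Br. The genes compared are not of like length, as that bin has a median of 1414 bases against 959. When nascent reads were taken per kb of span and mRNA per kb of longest transcript, ribosomal proteins were at 3.69 and 1.69, respiratory chain subunits at 3.45 and 2.34 and chromatin methyltransferases and demethylases at -1.39 and -0.67. The same step put immediate early genes at -0.50 and -2.31. Which part of each gene was counted is not given, so the part of length in these values was not tested.

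**Figure D4:**
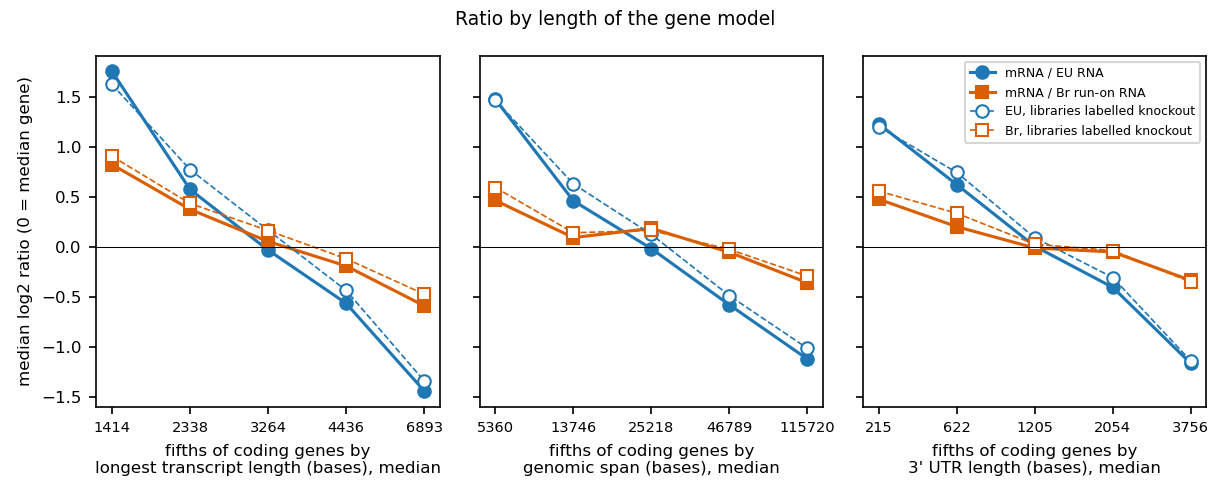
Median log2 ratio of protein-coding genes in 5 bins by longest transcript, genomic span and 3′ UTR length, for EU (blue circles) and Br (orange squares), with open symbols and dashed lines for the libraries labelled knockout. The EU ratio goes from 1.75 to -1.43 and the Br ratio from 0.82 to -0.58 from the shortest to the longest transcripts, and the open symbols run close to the filled ones.

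Uracil content and the length of the 3′ UTR moved with the EU ratio more than with the Br ratio. The EU label and that from bromo-UTP are both built into RNA in place of uridine. The part of transcript length in the values by uracil content was not tested. The EU ratio went from 0.90 in the bin of 5 with the least uracil (median 20.2% of the transcript) to -1.03 in the bin with the most (29.4%), while the Br ratio went from -0.02 to 0.11. By length of the 3′ UTR, EU medians went from 1.23 to -1.16 and Br medians from 0.48 to -0.33. The pentamer ATTTA, the core of AU-rich elements that are known to speed mRNA decay, was searched on the sense strand of the annotated 3′ UTR. It stood in 36.0% of high genes, 83.0% of low genes and 72.2% of the others, whose median 3′ UTR lengths were 314.5, 2242 and 1272 bases. The part of UTR length in these shares was not tested. Counted per kb of 3′ UTR, the pentamer had rho of -0.32 for EU and -0.07 for Br over 9528 genes. In 5 bins by this density, the lowest (Br median 0.80) and the next (-0.60) both hold genes without the pentamer. Density did not decide how those genes were split, so the gap between these bins cannot be read as an effect of it. In the bins above them, Br medians were -0.09, -0.11 and 0.005. Exon junctions per kb of coding sequence, a feature linked in the field to mRNA stability, had rho of 0.12 and 0.18. The level of mRNA enters the ratio itself, and its rho of 0.37 and 0.70 is given for that reason alone.

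Genes outside the rule show what it leaves out. Too little mRNA, with at least 20 reads in EU and Br, excluded 706 genes, of which 193 were protein coding, 192 not in the annotation, 91 antisense and 73 snoRNA genes. Of those with a symbol, Gm23971, Gm23849 and Gm24950, annotated as snRNA, the predicted RNA Gm26461 and Kif23 had the most EU reads. Gm23971 had mRNA values of 7, 11 and 33 against 2409 EU and 16857 Br reads. Kif23, a kinesin of cell division, had 17, 19 and 11 against 1426 EU and 223 Br reads. A further 1246 genes lacked Br reads only, 999 lacked EU reads only, and 1846 had mRNA without enough of either, while 20122 passed in none. Near the threshold, 243 genes with a value from 20 to under 22 in any of the 3 had medians of 0.19 for EU and -0.53 for Br. The 277 genes excluded for values from 18 to under 20 had 0.46 and -0.78.

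The same ratios were computed in the libraries labelled knockout, which share no library with those above. They are used here as other libraries and not as a genotype comparison. Kmt5a was not lower there in mRNA (1199, 1040 and 1075, against 593, 615 and 1076), a sum over the whole gene that does not check the deleted part. Of 9294 genes that met the rule there, 8859 were shared. Spearman's rho across these genes was 0.81 for the EU ratio and 0.89 for the Br ratio. Of 605 high genes 500 were measured again. Of these, 490 lay above the median gene in both ratios, where 35.4% of all genes in the repeat do, and 333 were again 4-fold above, against 5.57%. Of 275 low genes 218 were measured again, with 213 below in both (35.4%) and 123 again 4-fold below (3.43%). The typical gene moved by 0.63 for EU and 0.39 for Br.

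Several classes at the ends lay on the same side of the median gene there, though not in the same order. Medians in the repeat were 3.65 and 2.64 for ribosomal proteins, 3.45 and 3.39 for major urinary proteins, 3.06 and 2.22 for respiratory chain subunits, 4.01 and 3.02 for apolipoproteins and -1.50 and -0.95 for chromatin methyltransferases and demethylases. Apolipoproteins thus stood above ribosomal proteins, and the listed long noncoding RNAs, at -2.25 and -0.96, below the chromatin enzymes. Neat1 stood at -2.31 and -3.16 and Kmt2c at -3.43 and -1.48. Others did not repeat. Tat stood at 1.98 and 1.62, Cps1 at 0.61 and 2.45, Kynu at -0.01 and 0.50 and Nlrp12 at -1.39 and 1.62. Classes of metabolic enzymes under hormonal or sterol control had higher EU medians there than in wild type. Urea cycle and ammonia genes were at 1.96 and 2.42, above fatty acid oxidation and ketogenesis at 1.42 and 2.00. Amino acid breakdown was at 2.14 and 1.88, cholesterol synthesis and uptake at 1.50 and 0.91 and fatty acid synthesis at 1.18 and 1.35. Genotype and library cannot be told apart in these differences.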

How the data were processed

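The authors deposited the 3 wild-type mRNA libraries as DESeq-normalized reads per gene, whole numbers that are treated here as a score because they are not raw counts. The EU and Br files hold counts per gene as deposited by the authors. As each Br count was even, Br counts were divided by 2. TopHat2, Bowtie2, Cufflinks, DESeq, MACS2, SICER and the build mm9 stand in the submitters' processing notes with no role given. What did the counting, its annotation, its strand setting and its filters are not given in the sources used here. A deposited RPKM table was not used.

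Values were joined by gene ID and divided by their library's total over all genes. The mRNA value was the mean of 3 libraries. Genes with at least 20 in mRNA mean, EU and Br were kept, with no pseudocount, and log2 ratios were centred on the median gene. A gene was called at 4-fold (log2 of 2) or more in both ratios. With 1 nascent library per method there is no residual error, so no test was run. Intervals are exact Poisson at 95%. Symbols, biotypes and lengths came from GENCODE M21 by Ensembl ID (32860 of 37583 IDs matched), whose build is later than the authors' mm9, and start and miRNA sequences from RefSeq on GRCm38.p6. No coordinate was joined to the counts.

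Members and lists, 44 classes in all, were chosen with earlier results of these data known. Named genes came from this rule: the 10 highest and 10 lowest that pass with each library (no predicted, Rik or pseudogene symbols), the 2 highest, 2 lowest and most abundant of each class of at least 5, the 3 largest EU to Br differences in each direction and the 5 highest in EU with too little mRNA. Others were chosen after their values were seen: the further genes of the closing section, the start-run examples, Kmt5a, Igf1, Rps16, Rpl14, Zfp871, the endothelial, Kupffer and erythroid markers, and the miRNA genes. The ratio code was tested on simulated data. Alternatives are under the closing section. The software was Python 3.11.15 with pandas 2.3.3, numpy 2.4.6, scipy 1.17.1 and matplotlib 3.10.9.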

Additional observations from a re-analysis of the deposited data

How the results depend on the processing

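Leaving out 1 wild-type mRNA library at a time gave 588 to 632 high genes (605 with all 3), 268 to 292 low genes (275), 16 to 18 classes with both medians at least 2-fold above the median gene (18) and 5 to 7 with both below (5). The gap between the shortest and the longest transcripts then ran from 3.14 to 3.22 for EU (3.18) and from 1.38 to 1.43 for Br (1.41). No paired analysis was possible because no result comes from a test and the nascent libraries carry no replicate numbers. The minimum mattered most for low genes, with 428 at a minimum of 10, 154 at 50 and 1959 with none, and with none the high genes came to 1360. The length gap was 3.05 for EU at a minimum of 10, 1.52 for Br at 50, and 2.23 and 0.72 with no minimum, where the share of called genes on the same side in the libraries labelled knockout fell to 92.5% for high and 93.5% for low genes and the Br median of mitosis genes became 0.12. Per kb of gene model, high and low genes came to 938 and 798, sharing 342 of 594 and 157 of 246, classes with both medians below to 14, and the length gap to 2.66 and 0.92. Sign changes were counted only for class medians of at least 1 and gene ratios of at least 2 in size with the main settings. Of these, signs then turned for the EU median of immediate early genes (-0.50) and for the EU ratio of Apoa5 (-0.57), Kynu (0.53), Zfas1 (-0.41) and B3galt1 (1.67) and the Br ratio of Tcf7l2 (0.45). In the libraries labelled knockout the classes with both medians below came to 8 and the EU length gap to 2.88. Over the genes that met the rule in those libraries, and by the same limits of size, signs turned for the EU median of immediate early genes (-0.022), the Br median of antigen presentation and interferon genes (-0.027), the EU ratios of Ppp1r3b (1.30), Insig1 (0.025), Myc (-0.35) and Snrpd1 (0.56) and the Br ratio of Nlrp12 (1.62). Alternatives without centring were chosen after seeing the data. On library totals alone they gave 252 high and 826 low genes, 9 classes at least 2-fold above and 13 below, and without the 50 genes highest in mRNA 8 classes below. A 2-fold threshold gave 1629 and 1231 genes, an 8-fold one 183 and 58, and 157 low genes passed with each library. The causes of these changes were not tested, beyond the number of genes each setting admits. Over all alternatives, 4 class medians and 10 gene ratios past these limits changed sign. Of the rest, 788 class medians and 4775 gene ratios moved by less than their spread and 438 and 1355 by more. Smaller values that crossed 0 were counted only by how far they moved. With centring, scaling to totals without the 50 genes highest in mRNA or to the upper quartile could change no value. Each of these settings put 82 class medians and 418 gene ratios among those that moved by less. Depth limits low EU and Br counts most: at the median gene the counting interval spans 0.16 on either side for EU and 0.27 for Br.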

Other observations

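High genes outside the listed classes included a group of iron storage and antioxidant genes, picked after their values were seen. Ftl1, the ferritin light chain, had mRNA values of 68197, 66598 and 29540 with 488 EU and 1190 Br reads, and ratios of 6.32 and 3.54. Fth1, the heavy chain, had 10535, 14959 and 20566 with 398 EU and 549 Br reads, at 4.78 and 2.82. Sod1, the cytosolic superoxide dismutase, was at 5.83 and 4.82, Gpx4 at 5.06 and 3.33, Gpx1 at 5.08 and 2.51 and Prdx4 at 4.14 and 3.58. In this group the EU ratio exceeded the Br ratio for each of these 6 genes.

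Small housekeeping genes of other functions stood beside them, also picked after the fact. Oaz1, the antizyme that limits polyamine synthesis, had mRNA values of 13463, 13778 and 15240 with 174 EU and 221 Br reads, at 5.86 and 4.01. Hint1 stood at 5.14 and 3.69 and Pebp1 at 5.59 and 4.63. Of the 605 high genes 252 belonged to a listed class and 32 were annotated as pseudogenes, whose reads may belong to their parent genes.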
